A study of Mus musculus with 4 samples.

Results

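In 4T07 mouse mammary carcinoma cells, 48 of the 24421 genes of the deposited table were expressed in both control libraries and were at a fraction of that level, or nearly silent, in both libraries labelled Six2. A gene was included when the lower of its control values was at least 2 RPKM and the higher of its Six2 values was at most 0.33 times that control value. The members were thus chosen by the RPKM values of all 4 libraries, where RPKM is a gene's reads divided by gene length and library depth. Of the 9606 genes at the control floor, 60 met both conditions. The 12 of them that are left out here are among a named group of genes (Cdh1, Perp, Krt7, Krt19, Sbsn, Dll1, Nrarp, Tubb2a, Hs3st1, Mcpt8, Gzme, Fbln2 and Timp3) and the collagen chain genes. Because of that choice, the members' differences between Six2 and control libraries are given as a description and carry no test.

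The tested cells had the genotype Six2 Overexpression and the others the genotype control, with 2 libraries each. Both came from the 4T07 line of the Balb/cfC3H strain, grown in high-glucose DMEM with calf serum and lysed 48 hours after plating, and polyadenylated RNA was sequenced. The labels name no vector, promoter or clone, and do not say whether the replicates were separate cultures, so the spread between them may be technical. Six2 RNA was at 0.0285 RPKM in Six2 replicate 1 and was listed at 0 in Six2 replicate 2 and in both control libraries, so the groups are named by their labels alone.

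Six2 is a homeobox transcription factor known for holding nephron progenitors of the embryonic kidney in an undifferentiated state. Mammary carcinoma cells descend from an epithelium whose cells are joined by desmosomes, tight junctions and cadherins, and they secrete binding proteins, proteases and growth factors that act on neighbouring cells. In RNA from bulk cultures, fewer cells expressing a gene and less RNA per cell cannot be told apart.

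The libraries held 49910629 and 81524250 reads in the Six2 group and 43110985 and 41881864 in the control group. The 48 genes together took 0.0204% and 0.0188% of the reads in Six2 replicates 1 and 2, against 0.131% and 0.107% in control replicates 1 and 2. A value of 0 allows up to 3 reads, and for a gene of 1 kilobase 3 reads are 0.0601 and 0.0368 RPKM in the Six2 libraries and 0.0696 and 0.0716 RPKM in the control libraries. Such limits cover counting error only. The luminal keratin Krt8 was at 972 and 607 RPKM in Six2 cells and at 1059 and 742 RPKM in control cells. The epithelial surface gene Epcam reached at most 0.214 RPKM in Six2 cells and 0.72 RPKM in control cells. Of 16 luminal mammary markers, 5 were listed at 0 in every library and 7 reached 1 RPKM in at least 2 libraries. Of these 7, 5 were lower in Six2 cells. Krt7 was called lower and Csn3 higher, against 9 lower and 3 higher among all 10654 genes tested in limma. Of 22 leukocyte markers, 9 were listed at 0 in every library, and only 1 reached 1 RPKM in at least 2 libraries. Summed, the 22 were at 12.4 and 6.09 RPKM in Six2 cells and at 14.6 and 8.47 RPKM in control cells. The summed level of 16 fibroblast markers was 55.2 and 37.1 RPKM in Six2 cells and 97.3 and 62.0 RPKM in control cells. Col3a1, Lum and Thy1 were listed at 0 throughout, while 4 of the 16 reached 1 RPKM in at least 2 libraries. Of these 4, 3 were lower in Six2 cells, and the median log2 difference, Six2 minus control, was -0.53. The part of such cells in the results below was not tested.

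The 48 genes spanned a wide range of abundance. Their mean level was below 1 RPKM in Six2 cells for 31 genes, and in control cells it was at or above 10 RPKM for 12 genes, between 5 and 10 RPKM for 12 and below 5 RPKM for 24. The median of the mean levels was 0.702 RPKM in Six2 cells and 4.88 RPKM in control cells. The control mean was at least 5 times the Six2 mean for 35 genes, at least 10 times for 12 and at least 20 times for 4. The words "nearly lost" therefore describe a few of them literally. Only Rassf4, Kctd12b and A630095E13Rik were below 0.1 RPKM in both Six2 libraries, whereas Fabp5, Mapk13, Msln and Ptprk still averaged 5 RPKM or more there.

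**Figure D1:**
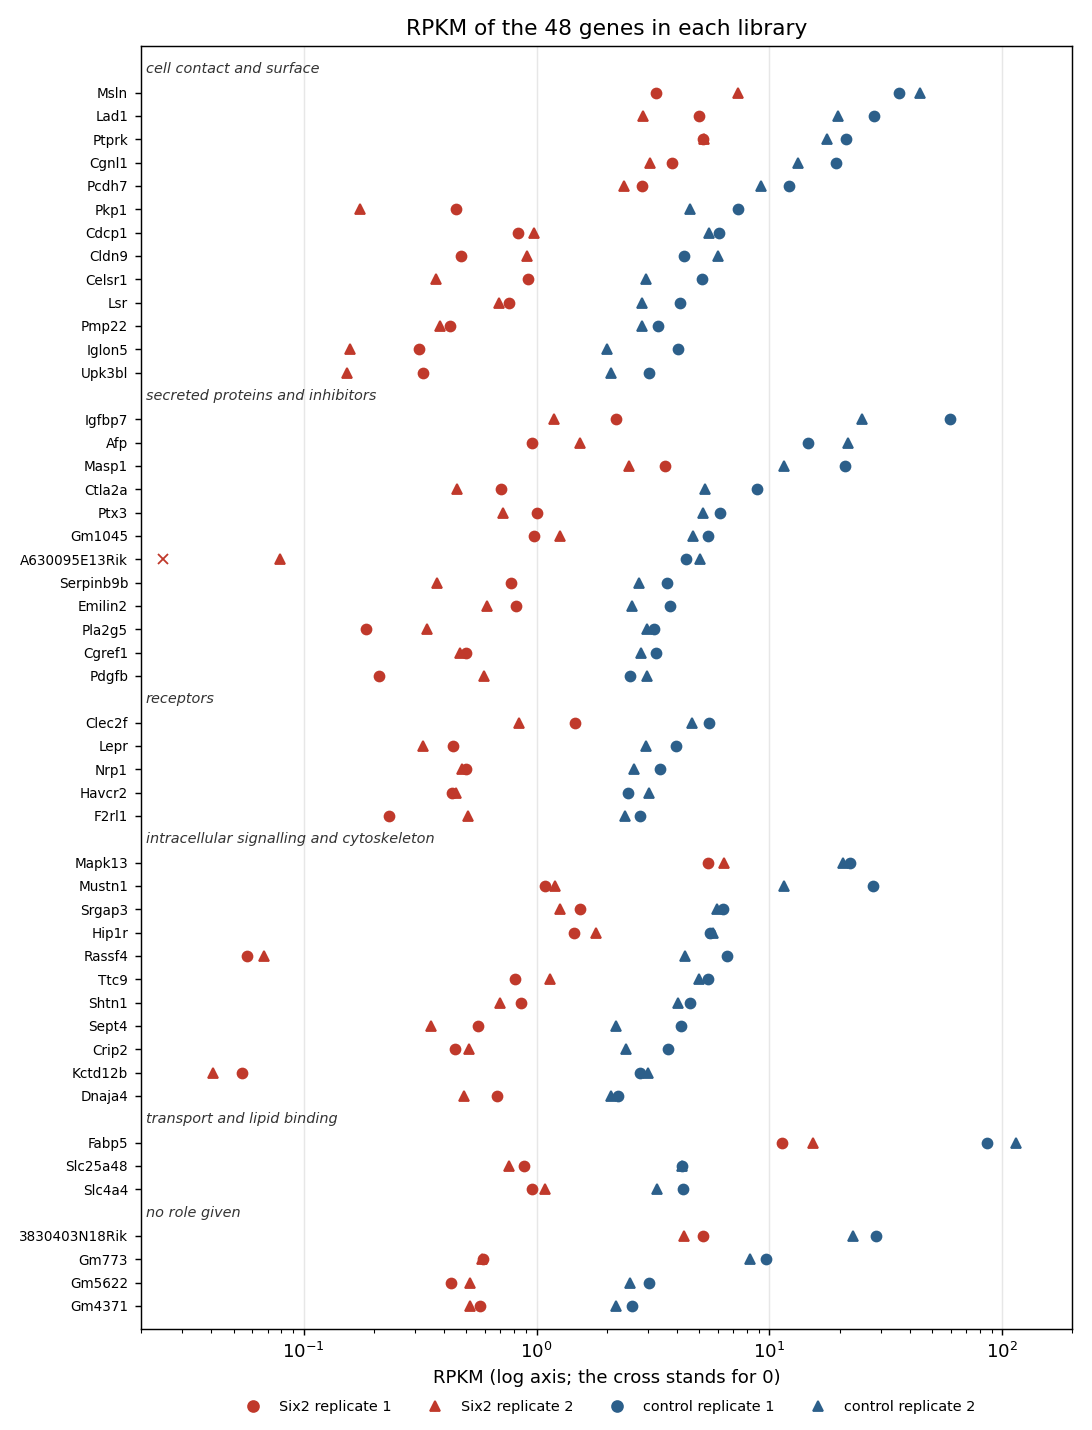
RPKM of each of the 48 genes (log axis) in Six2 replicates 1 and 2 (red) and control replicates 1 and 2 (blue), ordered within each group of roles by the control mean. The cross marks A630095E13Rik, listed at 0 in Six2 replicate 1, and every red point lies left of both blue points of its gene, as the rule requires.

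Rassf4, Kctd12b and A630095E13Rik stood near silence in Six2 cells, as their read numbers show. Rassf4, a Ras-association domain protein (chr6:116633008-116673952, minus strand), had 18 and 35 reads in Six2 replicates 1 and 2, against 1789 and 1150 reads in control replicates 1 and 2. In RPKM it was at 0.0568 and 0.0677 in Six2 cells and at 6.54 and 4.33 in control cells, and the control mean was 87.3 times the Six2 mean. Kctd12b, a KCTD family gene of the X chromosome (chrX:153685154-153696391, minus strand), had 13 and 16 reads in Six2 cells and 572 and 604 reads in control cells. Its levels were 0.0543 and 0.0409 RPKM in Six2 cells and 2.77 and 3.01 RPKM in control cells, a ratio of control to Six2 means of 60.6. Both genes were therefore detected in each Six2 library, at levels that hardly differed between the replicates. A630095E13Rik (chr9:36635754-36643376, minus strand), listed by RefSeq as Pate14, had 0 and 4 reads in Six2 cells, against 117 and 130 reads in control cells. It was the gene with no read in a Six2 library, and the control mean was 119 times the Six2 mean. The share of 50-base windows of its annotated transcripts that also occur in another gene was 17.8%, all with the overlapping model Gm49367, so its reads depend on how shared reads were counted.

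Promoter windows show the sequence around the start sites of genes the following results turn on. The windows are those of RefSeq on GRCm38.p6, from 250 bases before to 50 bases after the start, printed on the gene's strand. Rassf4 is shown as the member with the smallest ratio of the higher Six2 value to the lower control value, Igfbp7 as the one with the largest log2 difference, and Lad1 as one of a close pair described below, with each CG dinucleotide in capitals. The windows lie at chr6:116673787-116674086 (minus strand) for Rassf4, chr5:77407996-77408295 (minus strand) for Igfbp7 and chr1:135818348-135818647 (plus strand) for Lad1.
Rassf4: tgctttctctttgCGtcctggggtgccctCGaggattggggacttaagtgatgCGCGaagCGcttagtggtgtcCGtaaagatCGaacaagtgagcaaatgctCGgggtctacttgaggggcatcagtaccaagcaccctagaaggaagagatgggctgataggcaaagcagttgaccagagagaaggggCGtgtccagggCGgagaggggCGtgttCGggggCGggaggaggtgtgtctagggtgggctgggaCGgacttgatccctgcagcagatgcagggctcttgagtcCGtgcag
Igfbp7: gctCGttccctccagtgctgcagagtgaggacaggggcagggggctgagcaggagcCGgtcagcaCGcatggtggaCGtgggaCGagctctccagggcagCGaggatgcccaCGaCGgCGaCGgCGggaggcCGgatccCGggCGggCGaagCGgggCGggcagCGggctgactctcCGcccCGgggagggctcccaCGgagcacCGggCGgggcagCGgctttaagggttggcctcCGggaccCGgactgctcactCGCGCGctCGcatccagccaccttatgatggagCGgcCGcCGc
Lad1: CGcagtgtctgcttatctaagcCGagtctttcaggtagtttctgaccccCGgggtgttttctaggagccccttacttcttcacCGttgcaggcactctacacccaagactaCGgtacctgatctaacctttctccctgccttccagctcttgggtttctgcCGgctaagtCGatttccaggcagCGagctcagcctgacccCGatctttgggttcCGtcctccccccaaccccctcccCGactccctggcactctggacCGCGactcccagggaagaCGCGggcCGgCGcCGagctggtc

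The Igfbp7 window held 33 CG dinucleotides, more than 91.4% of the 32851 promoter windows of the table, whose median was 7. The windows of Lad1 and Rassf4 held 18 and 15. RefSeq windows were found for 36 of the 48 genes, which is 75%, too few for a comparison of the set with other genes. The MEF3 motif TCAGGTTTC, which Six2 and its relatives are known to bind, was searched on both strands and occurred in 0 of the 50 windows of those 36 genes and in 0.429% of all windows. The TATA box TATAAA occurred in 5 of the 50 and in 13.6% of all windows, and the GC box GGGCGG in 27 of the 50 and in 35.7% of all windows. Genes with several windows, such as Pmp22 and Sept4, can count more than once in these numbers. A match or its absence describes these letters in these windows and nothing about a factor.

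Genes of cell contact and the cell surface were 13 of the members, among them parts of desmosomes, tight junctions and cadherin contacts. Roles were assigned by hand with the values known, and their share among all expressed genes was not determined. Pkp1, a plakophilin of the desmosomal plaque (chr1:135871395-135919207, minus strand), was at 0.451 and 0.175 RPKM in Six2 cells and at 7.31 and 4.56 RPKM in control cells, so that its Six2 mean was 0.0527 times its control mean. Lad1, ladinin, an anchoring-filament protein of the epithelial basement membrane (chr1:135818598-135833342, plus strand), was at 4.98 and 2.87 RPKM in Six2 cells and at 28.2 and 19.8 RPKM in control cells. Both genes were lower in replicate 2 than in replicate 1 of either group. Msln, mesothelin, a surface glycoprotein of mesothelium and of many carcinomas, was at 3.25 and 7.31 RPKM in Six2 cells and at 35.9 and 44.3 RPKM in control cells. Its Six2 replicates differed more than 2-fold, the replicate 2 value being the higher.

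Among the junction genes proper, Cgnl1, paracingulin of tight and adherens junctions, was at 3.80 and 3.07 RPKM in Six2 cells and at 19.3 and 13.3 RPKM in control cells. Cldn9, a claudin of tight junction strands, was at 0.472 and 0.910 RPKM in Six2 cells and at 4.29 and 6.01 RPKM in control cells. Lsr, a receptor for lipoproteins that also marks the corners where epithelial cells meet, was at 0.764 and 0.687 RPKM in Six2 cells and at 4.11 and 2.83 RPKM in control cells. These genes differed in abundance by several-fold, yet the control mean was 4.75 times the Six2 mean for Cgnl1, 7.45 times for Cldn9 and 4.78 times for Lsr. Ptprk, a receptor tyrosine phosphatase that binds itself across cell contacts, was at 5.21 and 5.23 RPKM in Six2 cells and at 21.4 and 17.7 RPKM in control cells. Pcdh7, a protocadherin, was at 2.85 and 2.37 RPKM in Six2 cells and at 12.1 and 9.17 RPKM in control cells. Celsr1, a cadherin of planar cell polarity, was at 0.916 and 0.370 RPKM in Six2 cells and at 5.13 and 2.95 RPKM in control cells. The Six2 mean was 0.267 times the control mean for Ptprk, 0.245 times for Pcdh7 and 0.159 times for Celsr1, whose replicates were further apart. Cdcp1, a transmembrane substrate of Src kinases, was at 0.833 and 0.978 RPKM in Six2 cells and at 6.06 and 5.51 RPKM in control cells. The other members of the group were low in all libraries. Pmp22, a membrane protein of myelin and of epithelial contacts, was at 0.426 and 0.386 RPKM in Six2 cells and at 3.32 and 2.84 RPKM in control cells. Iglon5, an immunoglobulin-domain adhesion protein, was at 0.312 and 0.158 RPKM in Six2 cells and at 4.06 and 2.01 RPKM in control cells. Upk3bl, a uroplakin-like gene, was at 0.327 and 0.153 RPKM in Six2 cells and at 3.02 and 2.08 RPKM in control cells.

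Secreted proteins and inhibitors numbered 12, and the gene with the largest difference on the log2(RPKM + 1) scale was among them. Igfbp7, a secreted protein that binds insulin-like growth factors (chr5:77349240-77408041, minus strand), was at 2.20 and 1.18 RPKM in Six2 cells and at 59.5 and 24.9 RPKM in control cells. The log2 difference, Six2 minus control, was -3.91 with a standard error of 0.46 (n = 2 each), and the control libraries alone differed more than 2-fold. Afp, alpha-fetoprotein, the main serum protein of the fetus (chr5:90490737-90508907, plus strand), was at 0.960 and 1.53 RPKM in Six2 cells and at 14.6 and 21.8 RPKM in control cells, a log2 difference of -3.08 with a standard error of 0.25. Alb, the albumin gene and adult counterpart of Afp, was listed at 0 in all 4 libraries.

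Other secreted members belong to innate defence. Masp1, a serine protease of the lectin pathway of complement, was at 3.57 and 2.50 RPKM in Six2 cells and at 21.2 and 11.6 RPKM in control cells. Ptx3, a pentraxin that binds microbes and complement components, was at 1.00 and 0.715 RPKM in Six2 cells and at 6.16 and 5.21 RPKM in control cells. Pla2g5, a secreted phospholipase, was at 0.185 and 0.340 RPKM in Six2 cells and at 3.20 and 2.97 RPKM in control cells. The control replicates of Masp1 differed almost 2-fold, while those of Ptx3 and Pla2g5 were close. Ctla2a, an inhibitor of cathepsin proteases, was at 0.704 and 0.458 RPKM in Six2 cells and at 8.80 and 5.31 RPKM in control cells. Serpinb9b, a serine protease inhibitor gene of mouse, was at 0.779 and 0.375 RPKM in Six2 cells and at 3.62 and 2.75 RPKM in control cells. Pdgfb, the B chain of platelet-derived growth factor, was at 0.211 and 0.592 RPKM in Six2 cells and at 2.52 and 2.97 RPKM in control cells. Emilin2, a glycoprotein of elastic matrix, was at 0.815 and 0.612 RPKM in Six2 cells and at 3.73 and 2.57 RPKM in control cells. Cgref1, a secreted protein with EF-hand domains, was at 0.497 and 0.470 RPKM in Six2 cells and at 3.26 and 2.80 RPKM in control cells. Gm1045, which RefSeq lists as Odaph, was at 0.977 and 1.26 RPKM in Six2 cells and at 5.44 and 4.69 RPKM in control cells. In this group only Pdgfb, Afp and A630095E13Rik were higher in replicate 2 than in replicate 1 in both groups of cells.

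The receptor group had 5 members, each at or below 5.51 RPKM in any library, with Clec2f counted among them though annotated as a pseudogene. Lepr, the leptin receptor, was at 0.438 and 0.325 RPKM in Six2 cells and at 3.95 and 2.96 RPKM in control cells, and the gene of its ligand, Lep, was listed at 0 in all libraries. Nrp1, a co-receptor for semaphorins and vascular endothelial growth factor, was at 0.498 and 0.477 RPKM in Six2 cells and at 3.39 and 2.61 RPKM in control cells. F2rl1, a protease-activated receptor, was at 0.233 and 0.507 RPKM in Six2 cells and at 2.78 and 2.39 RPKM in control cells. The control mean was 9.06 times the Six2 mean for Lepr, 6.16 times for Nrp1 and 6.98 times for F2rl1. Havcr2, an inhibitory receptor best known from T cells, was at 0.434 and 0.450 RPKM in Six2 cells and at 2.48 and 3.05 RPKM in control cells. The pan-leukocyte gene Ptprc was at most 0.00433 RPKM in Six2 cells and 0.00409 RPKM in control cells. Clec2f, annotated as a pseudogene, was at 1.46 and 0.840 RPKM in Six2 cells and at 5.51 and 4.65 RPKM in control cells.

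The next 11 members act inside the cell, in signalling, the cytoskeleton or protein folding, 1 of them being Rassf4 and another Kctd12b. Mustn1, a small nuclear protein of muscle and skeletal tissue (chr14:30879200-30881610, plus strand), was at 1.09 and 1.20 RPKM in Six2 cells and at 27.9 and 11.5 RPKM in control cells. Its Six2 replicates were alike and its control replicates more than 2-fold apart, and the control mean was 17.2 times the Six2 mean. Mapk13, a stress-activated MAP kinase, was at 5.47 and 6.39 RPKM in Six2 cells and at 22.2 and 20.7 RPKM in control cells. Srgap3, which acts downstream of axon guidance receptors, was at 1.54 and 1.26 RPKM in Six2 cells and at 6.29 and 5.94 RPKM in control cells. Hip1r, a clathrin adaptor that binds actin, had 316 and 643 reads in Six2 cells and 1049 and 1054 reads in control cells, where its mean RPKM was 3.48 times as high. The replicates of these 3 genes were close in RPKM in either group. Ttc9, a tetratricopeptide repeat protein, was at 0.805 and 1.15 RPKM in Six2 cells and at 5.43 and 4.97 RPKM in control cells. Shtn1, shootin, which couples actin flow to adhesion in growing axons, was at 0.859 and 0.697 RPKM in Six2 cells and at 4.58 and 4.04 RPKM in control cells. Sept4, a septin, was at 0.562 and 0.350 RPKM in Six2 cells and at 4.19 and 2.20 RPKM in control cells. Crip2, a LIM domain protein, and Dnaja4, a DnaJ co-chaperone, were at or below 0.673 RPKM in Six2 cells and between 2.09 and 3.66 RPKM in control cells.

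Transport and lipid binding had 3 members, and the most abundant gene of the whole set was 1 of them. Fabp5, an intracellular carrier of fatty acids (chr3:10012548-10016607, plus strand), was at 11.3 and 15.3 RPKM in Six2 cells and at 85.9 and 114 RPKM in control cells, so the control mean was 7.53 times the Six2 mean. It kept a clear level in Six2 cells, higher than the control level of most other members. Of its transcript windows, 5.48% also occur elsewhere, mostly in the model Gm6166. Slc25a48, a mitochondrial carrier, was at 0.883 and 0.762 RPKM in Six2 cells and at 4.23 and 4.21 RPKM in control cells. Slc4a4, a sodium bicarbonate cotransporter, was at 0.955 and 1.08 RPKM in Six2 cells and at 4.23 and 3.30 RPKM in control cells. The 4 members given no role were 3830403N18Rik, Gm773, Gm5622 and Gm4371.

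Of those 4, 3830403N18Rik and Gm773 are neighbours on the X chromosome, 36.3 kilobases apart with no gene of the table between them. Gm773 (chrX:56189827-56212881, minus strand) was at 0.590 and 0.580 RPKM in Six2 cells and at 9.68 and 8.26 RPKM in control cells, where the mean was 15.3 times as high. 3830403N18Rik (chrX:56136572-56153498, plus strand) was at 5.19 and 4.31 RPKM in Six2 cells and at 28.7 and 22.8 RPKM in control cells, where the mean was 5.42 times as high. The replicates of both genes were close in either group. The other genes of the table within 250 kilobases, 1600025M17Rik, Zfp449 and Smim10l2a, were listed at 0 in both Six2 libraries and were at most 0.0437 RPKM in control cells, so no expressed neighbour could be compared.

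The promoter windows of this pair are shown because a script found that they share a run of 14 bases, in capitals. They lie at chrX:56212832-56213131 (minus strand) for Gm773 and chrX:56136322-56136621 (plus strand) for 3830403N18Rik.
Gm773: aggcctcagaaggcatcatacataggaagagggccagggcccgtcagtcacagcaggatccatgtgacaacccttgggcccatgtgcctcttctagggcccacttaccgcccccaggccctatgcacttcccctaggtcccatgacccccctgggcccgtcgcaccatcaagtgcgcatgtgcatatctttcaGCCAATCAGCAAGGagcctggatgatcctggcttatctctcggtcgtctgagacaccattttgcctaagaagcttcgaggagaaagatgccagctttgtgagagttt
3830403N18Rik: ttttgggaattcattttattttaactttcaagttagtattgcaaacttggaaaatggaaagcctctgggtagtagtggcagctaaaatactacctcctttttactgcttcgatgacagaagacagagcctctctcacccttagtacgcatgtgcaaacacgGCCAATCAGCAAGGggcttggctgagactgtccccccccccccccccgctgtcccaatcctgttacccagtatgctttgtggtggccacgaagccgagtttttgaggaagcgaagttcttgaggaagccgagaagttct

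The run began 57 bases upstream of the start of Gm773 and 89 bases upstream of that of 3830403N18Rik, and each window held 8 CG dinucleotides. It occurred on either strand in 4 promoter windows of the table, which is 0.0122%, those of 3830403N18Rik, Gm773, Xlr and Camkk2. Xlr, another gene of the X chromosome with which 3830403N18Rik shares 160 of its 50-base transcript windows, was at 22.1 and 19.4 RPKM in Six2 cells and at 27.6 and 21.7 RPKM in control cells. Its log2 difference of -0.23 missed the threshold (limma over all tested genes, adjusted p = 0.524). Camkk2 was at 12.3 and 12.1 RPKM in Six2 cells and at 8.92 and 9.48 RPKM in control cells, a log2 difference of 0.37 that missed it as well (limma adjusted p = 0.202). The shared run was thus found with genes whose values lay on either side of 0. Since 21.8% of the transcript windows of 3830403N18Rik occur in other genes, its level depends on the treatment of shared reads, whereas for Gm773 the share was 3.58%.

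Lad1 and Pkp1 are the second close pair, 38.1 kilobases apart on chromosome 1 with the cardiac troponin gene Tnnt2 between them. Tnnt2 was at 47.7 and 24.3 RPKM in Six2 cells and at 68.8 and 39.6 RPKM in control cells, with a log2 difference of -0.60 ± 0.42 (SE, n = 2 each, limma adjusted p = 0.542). Tnni1, a troponin gene on the far side of Lad1, was at 4.51 and 3.06 RPKM in Six2 cells and at 12.7 and 8.10 RPKM in control cells, with a log2 difference of -1.24 ± 0.27 (SE, n = 2 each, limma adjusted p = 0.164). Neither difference passed the test, and the Six2 and control values of Tnnt2 overlapped. Beyond them the log2 differences were -0.44 for Csrp1, 0.39 for Phlda3, 0.19 for Nav1 and 0.07 for Tmem9, and none passed. The median log2 difference of the 580 tested genes of chromosome 1 was 0.32.

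**Figure D2:**
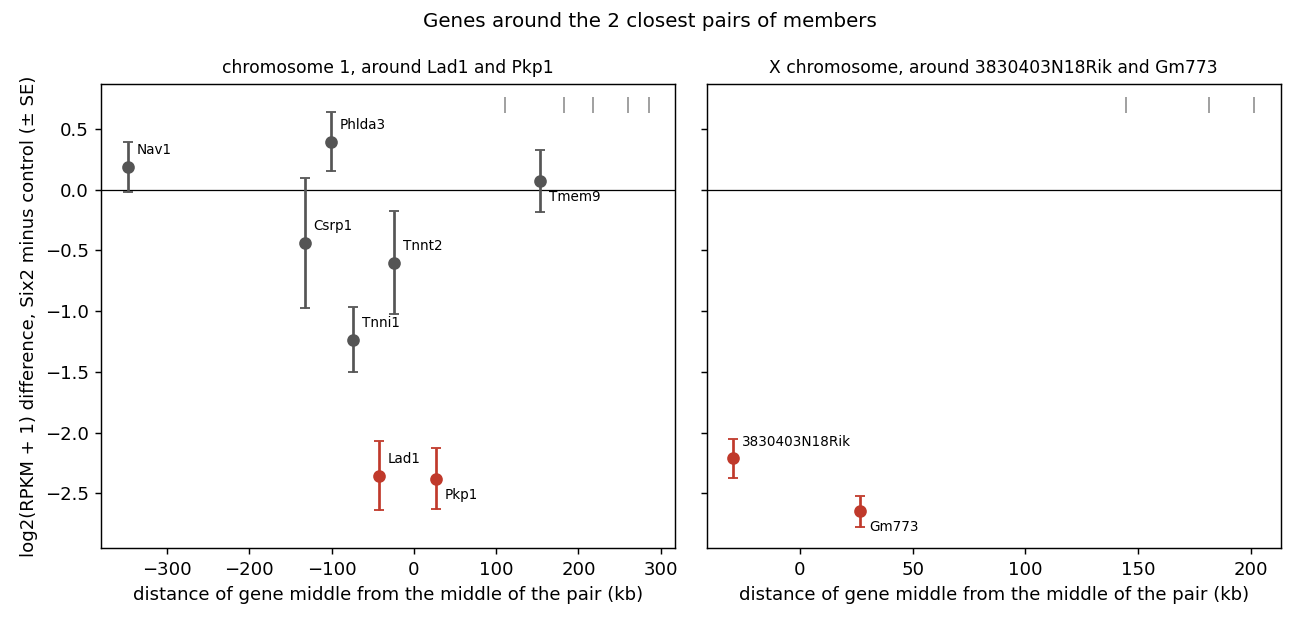
Log2(RPKM + 1) difference, Six2 minus control, with its standard error (n = 2 each), of tested genes around Lad1 and Pkp1 (left) and around 3830403N18Rik and Gm773 (right), by distance of the gene's middle from the middle of the pair in kilobases. Members are red and other genes grey, short marks at the top are genes of the table too low to be tested, and Lad1 and Pkp1 lie at -2.36 and -2.38 beside Tnni1 at -1.24 and Tnnt2 at -0.60.

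Ctla2a lies on chromosome 13 (chr13:60934155-60936625, minus strand) beside relatives that were also lower in both Six2 libraries. Its close relative Ctla2b was at 1.01 and 0.567 RPKM in Six2 cells and at 4.00 and 2.73 RPKM in control cells, a log2 difference of -1.28 ± 0.22 (SE, n = 2 each, limma adjusted p = 0.138). The nearby 4930486L24Rik was at 0.730 and 0.375 RPKM in Six2 cells and at 3.29 and 1.98 RPKM in control cells, a log2 difference of -1.21 ± 0.24 (SE, n = 2 each, limma adjusted p = 0.152). Neither passed the test. Both Six2 values lay below both control values for each, as they did for 25.5% of all tested genes. Of the transcript windows of Ctla2a, 25.5% occur in other genes, so how reads of this cluster were divided among its genes is uncertain. Around A630095E13Rik on chromosome 9, the low genes Gm17689 and Gm5615 were listed at 0 in both Six2 libraries, and were at 0.562 and 0.362 RPKM and at 0.0891 and 0.102 RPKM in control cells. The expressed genes Chek1, Stt3a and Ei24 on its other side had log2 differences of 0.12, -0.15 and 0.05, none of which passed.

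Across the genome, 47 of the 48 genes could be placed by the GENCODE annotation of GRCm38, on 18 chromosomes. Members were 8 of the 667 tested genes of chromosome 5 (1.20%) and 3 of 298 on the X chromosome (1.01%). They were 4 of 369 on chromosome 13 (1.08%), 4 of 525 on chromosome 17 (0.762%) and 4 of 592 on chromosome 9 (0.676%). Chromosomes 2 and 18 held 0 among 830 and 245 tested genes. Of all 10264 placed genes that were tested, 0.458% were members. Of the genes of the table directly beside a member on either side, 38 were tested and were not members themselves. Of these neighbours 31 had a log2 difference below 0, or 81.6%, against 52.1% of all 10654 genes tested, with a median of -0.25 against -0.01. They ranged from -1.24 to 0.35, and only Tnni1 was lower by 1 or more. Exons of 11 members overlapped those of another gene, on the other strand for 7 and on the same strand for 5, and the strand setting of the counting is not given in the sources used here.

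The members' families were examined to see whether relatives moved with them. Of 112 relatives in the table, for 35 members, 52 were expressed enough to be tested. In limma none passed an adjusted p of 0.05. An unadjusted limma p was below 0.05 for 16 of them, and the share of all tested genes below it was not determined in this fit. Without the filter on low values, 2503 of 16679 genes were below it. Of the 52, 33 were below 0 (63.5%, against 52.1% of all genes tested) with a median log2 difference of -0.13, 2 were lower by 1 or more, Ctla2b and Serpinb6b, and 0 were higher by 1 or more.

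Several relatives had small differences. The MAP kinases Mapk14, Mapk12 and Mapk11, of the family of Mapk13, had log2 differences of -0.14, -0.01 and -0.15, against -1.70 for Mapk13 itself. The plakophilins Pkp2, Pkp3 and Pkp4 had -0.31, -0.09 and -0.06, against -2.38 for Pkp1. Igfbp4, at 678 and 587 RPKM in Six2 cells and 727 and 640 RPKM in control cells, had -0.11 and Igfbp6 had 0.01, against -3.91 for Igfbp7. Each of these families thus had its other tested genes no further than 0.31 from 0. Nrp2, which shares semaphorin ligands with Nrp1, had a log2 difference of 0.18 and was at 37.5 and 35.8 RPKM in Six2 cells and 30.9 and 33.6 RPKM in control cells. Srgap2 had 0.22 and Hip1 had -0.18. Other relatives were further below 0 without passing the test. Serpinb6b had -1.22 (limma adjusted p = 0.107), Fabp4 -0.84 (adjusted p = 0.117), Pdgfc -0.82 (adjusted p = 0.198), Rassf2 -0.79 (adjusted p = 0.253), Crip1 -0.79 (adjusted p = 0.243), Emp2 -0.74 (adjusted p = 0.127) and Pdgfa -0.68 (adjusted p = 0.173). Pcdh18 and Ptpru lay well above 0. The protocadherin Pcdh18 was at 3.02 and 2.22 RPKM in Six2 cells and at 0.880 and 0.901 RPKM in control cells, a log2 difference of 0.93 (limma adjusted p = 0.137), while Pcdh7 was at -1.68. The phosphatase Ptpru was at 5.76 and 4.86 RPKM in Six2 cells and at 3.62 and 2.49 RPKM in control cells, a log2 difference of 0.65 (adjusted p = 0.216), while Ptprk was at -1.72.

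**Figure D3:**
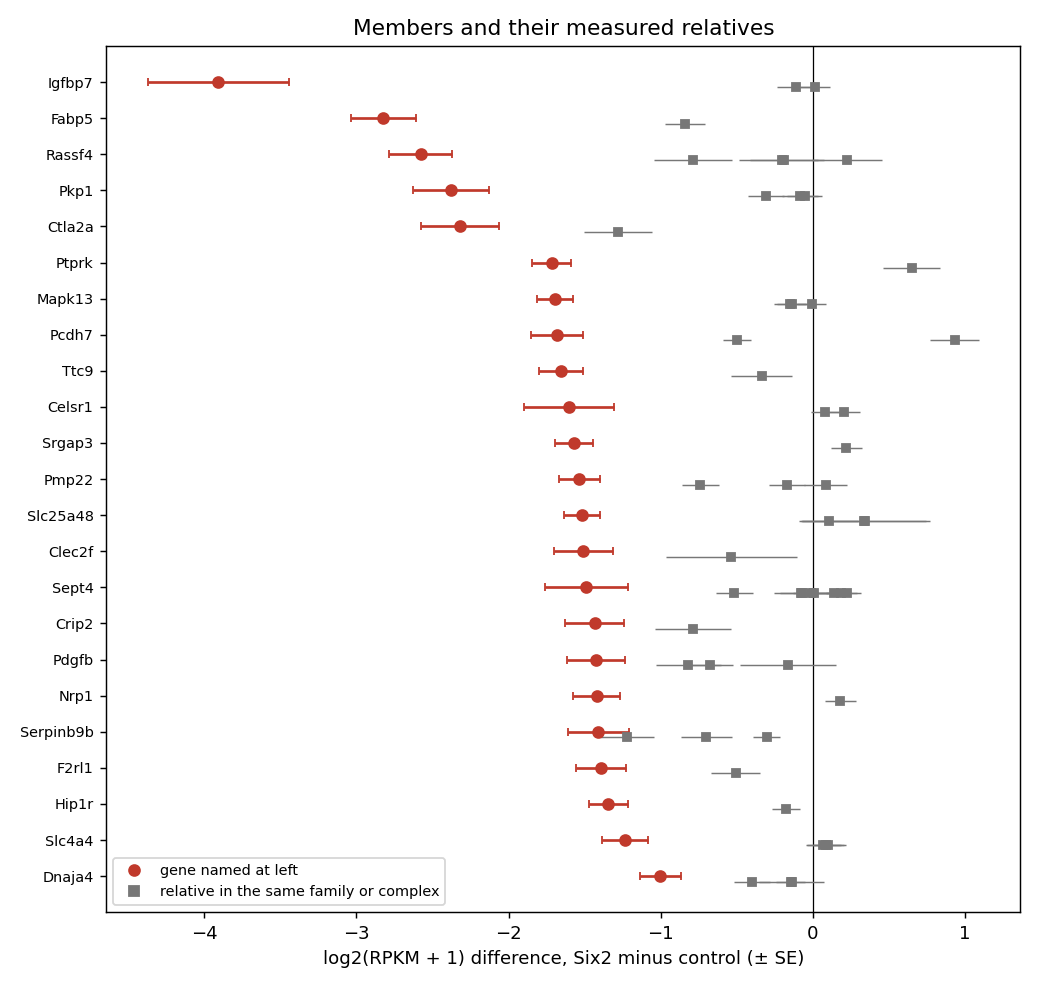
Log2(RPKM + 1) difference, Six2 minus control, with its standard error (n = 2 each), of members (red) that have tested relatives and of those relatives (grey). All 52 relatives lie between -1.28 for Ctla2b and 0.93 for Pcdh18, and most lie near 0 to the right of the member they belong to.

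Few members belonged to the wider gene lists of pathways. Pkp1 and Cdcp1 were members of a list of epithelial junction and identity genes, of which 18 were tested and 15 were below 0, with a median log2 difference of -0.41. In that list Perp and Krt7 passed the test as lower in Six2 cells (limma, adjusted p = 0.0397 for both). Ptx3 belonged to a list of complement and innate response genes, of which 15 were tested and 13 were below 0, with a median of -0.87 and 0 called in limma. Pdgfb belonged to a list of chemokines, cytokines and growth factors with 23 of 33 tested genes below 0 and a median of -0.38, Emilin2 to a matrix and adhesion list with 30 of 40 below 0 and a median of -0.39, and Nrp1 to an axon guidance list with 21 of 34 below 0 and a median of -0.17. None of these 3 lists had a called gene. The counts and medians of all these lists include their members, which the rule itself placed below 0. Left out of the set by name were Cdh1, Perp, Krt7 and Krt19 of the epithelial list, Fbln2 of the matrix list, and Dll1 and Nrarp of the Notch list. Such genes could not count as members at any value. Perp and Krt7, both called lower, also enter the count and median of the epithelial list. The other lists, cell type markers aside, held 0 members. Their lowest median was -0.63, for arachidonate, retinoid and steroid metabolism, with 14 of 16 tested genes below 0. Their highest was 0.004, for interferon-stimulated genes, with 12 of 24 below 0. Dll1 of the Notch list was called lower. Over all 10654 tested genes the median was -0.01, and 52.1% were below 0.

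All 48 genes passed the filter on low values, which required 1 RPKM in at least 2 libraries, and their log2 differences had a median of -1.66, with Igfbp7 lowest at -3.91 and Dnaja4 nearest to 0. Over all tested genes, limma called 9 lower in Six2 cells at an adjusted p of 0.05 (0.0845% of those tested) and 3 higher (0.0282%). Among the 9 were 2 of the 48, Gm773 and A630095E13Rik, a count fixed in part by the rule, since the rule used the same contrast. Without Six2 replicate 1 or replicate 2 the called members numbered 19 and 23, without control replicate 1 or replicate 2 they numbered 4 and 13, and A630095E13Rik was not called without control replicate 1. In each of these fits 1 group had a single library, which was assumed to vary like the libraries of the other group. The genes called lower over the whole table numbered 31 and 50 without Six2 replicate 1 or replicate 2, and 9 and 25 without control replicate 1 or replicate 2, and those called higher numbered 4 and 18, and 2 and 6, in the same order. Both Six2 values lay below both control values for 2716 tested genes, or 25.5%. For a single gene, 2 libraries against 2 cannot go below an exact two-sided permutation p of 0.333.

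The control replicates were not alike for these genes. Control replicate 2 was below control replicate 1 for 39 of the 48, or 81.3%, against 52.6% of all tested genes. At least 1.5 times as high in control replicate 1 were 10 members, while 0 were so in replicate 2. Six2 replicate 2 was below Six2 replicate 1 for 28 members. The shares of all tested genes for the 1.5-fold gap and for the Six2 replicates were not determined. The median difference of replicate 2 from replicate 1 was -0.03 in Six2 cells and -0.20 in control cells on the log2 scale. Over all tested genes it was -0.005 in Six2 cells and -0.018 in control cells. The widest control gaps were those of Igfbp7 and Mustn1. That their Six2 values lay well below both control values is set by the rule, as for every member.

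**Figure D4:**
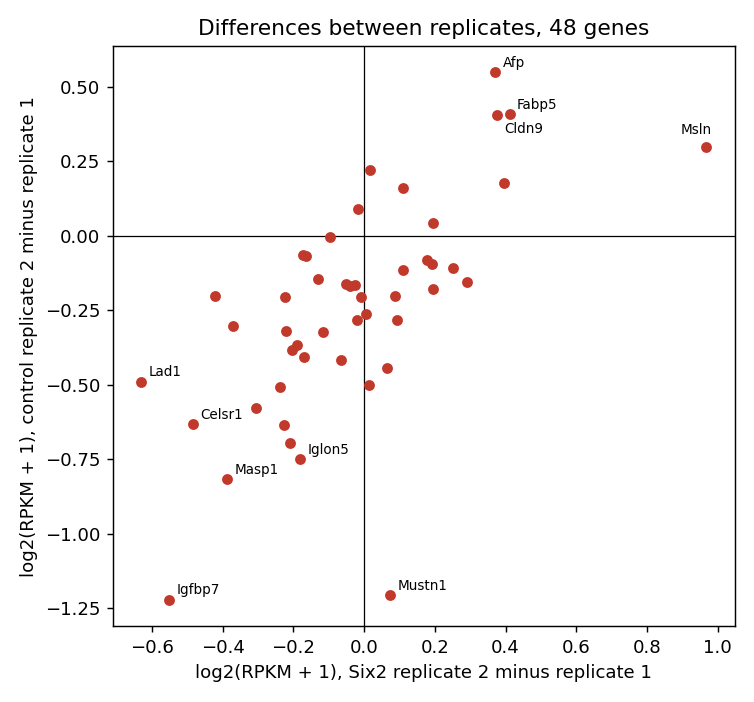
Difference of replicate 2 from replicate 1 on the log2(RPKM + 1) scale in Six2 cells (x axis) and in control cells (y axis) for the 48 genes, 1 point each. Of the points, 27 lie below 0 on both axes and 8 above 0 on both, so that 72.9% share a sign against 82.9% of all tested genes, with Igfbp7 and Mustn1 lowest and Afp highest on the control axis.

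The boundary of the set fell among genes of like values. Just inside the limit of 0.33, the higher Six2 value was 0.322 times the lower control value for Dnaja4, 0.324 times for Hip1r and 0.328 times for Slc4a4. Just outside it were Mcam at 0.336, Gm10439 at 0.337 and Gm13544 at 0.339. Just inside the floor of 2 RPKM, the lower control value was 2.01 RPKM for Iglon5, 2.08 for Upk3bl and 2.09 for Dnaja4. Just outside were Tubb2b at 1.94, Arhgap8 at 1.87 and Sorbs2 at 1.75. Of these, Tubb2b was at 0.0730 and 0.134 RPKM in Six2 cells and at 2.70 and 1.94 RPKM in control cells, a lower ratio than that of most members. With Six2 replicate 1 or replicate 2 left out, 76 and 68 genes met the rule, and with control replicate 1 or replicate 2 left out, 53 and 112. The 48 are among them by construction, since leaving out a library can only relax a rule set on the lowest control and the highest Six2 value.

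The least annotated members close the account. Gm5622 (chr14:51552790-51662953, plus strand) was at 0.431 and 0.520 RPKM in Six2 cells and at 3.05 and 2.52 RPKM in control cells, and 41.2% of its transcript windows occur in other genes. Gm4371, which the GENCODE annotation used here does not list, was at 0.572 and 0.518 RPKM in Six2 cells and at 2.58 and 2.19 RPKM in control cells. For 27 of the 47 members with annotated transcripts no 50-base window occurs in another gene, and the share was above 10% for 4, namely 3830403N18Rik, Ctla2a, A630095E13Rik and Gm5622.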

How the data were processed

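Polyadenylated RNA of 4T07 cells was sequenced in 2 Six2 and 2 control libraries, with TruSeq stranded kits per the labels. The authors deposited RPKM values for 24421 genes. Per the submitters' processing notes, the tools were TopHat2 2.1.1 with Bowtie2 and HTSeq 0.8.0, besides Picard 2.9.4, SAMtools 1.5, FastQC 0.11.5 and bcl2fastq 1.8.4, and the builds GRCm38 and mm10. For annotation, gene lengths and strand setting, nothing is given in the sources used here.

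Here, read totals and reads were recovered from the steps of the RPKM values; 99.99% of 14459 genes gave whole reads within 0.001 reads. Since the values were RPKM and not counts, limma 3.58.1 (R 4.3.3) fitted log2(RPKM + 1) on group with a variance trend, two-sided and Benjamini-Hochberg adjusted, for 10654 genes at 1 RPKM in at least 2 libraries. The log2 scale with a pseudocount understates changes of low genes. The fit was tested on simulated independent libraries, with changes set only in well-covered genes. These lacked the replicate difference that the groups share here, so the fit was not tested under it. The members, relatives, roles and lists were chosen with earlier results of these data known. Named in full were members with 0 reads in a Six2 library, the 15 of highest control level, the 15 of smallest ratio, called members and adjacent members; others by role. Alternatives changed the scaling, pseudocount, filter, thresholds, libraries, replicate term and test.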

Additional observations from a re-analysis of the deposited data

How the results depend on the processing

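Precision is limited by the 2 libraries per group, and genes near 0 in Six2 cells rest on few reads. Leaving out 1 library gave 9 to 50 genes lower (9 in all 4 libraries), 2 to 18 higher (3), 4 to 23 called members (2) and 53 to 112 genes meeting the rule (48), which hold the 48 by construction, and medians of the 48 of -1.74 to -1.52 (-1.66); the group with a single library was assumed to vary like the other. Without the filter, 0 genes were called lower, 0 higher and 0 members in limma, where the smallest adjusted p was 0.0519 and 2503 genes had an unadjusted p under 0.05. With voom on recovered reads, 10 of 10654 genes were called lower and 3 higher. Among those lower were 4 members, a count that the rule favours. A floor of 1, 3 or 5 RPKM gave 77, 28 or 18 genes with medians of -1.44, -1.90 or -2.14. A ratio of 0.25 gave 30 genes, a ratio of 0.5 gave 119 with a median of -1.38, and group means gave 100. Pseudocounts of 0.1 and 0.5 gave medians of -2.47 and -1.97. With scaling factors 46 genes met the rule, without Hip1r and Slc4a4. With chromosome medians removed, an alternative chosen after seeing the data, the median was -1.62. All 528 values of single members under 11 alternatives kept their direction, which the rule itself favours.

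With the replicate number as a block, 2506 genes were lower (23.5% of those tested) and 2133 higher, and 48 members were called. Nothing in the labels says that a number marks a shared culture or day. Across 10654 genes the difference of replicate 2 from replicate 1 correlated between the groups with r = 0.818, as a description. The planned edgeR test was not run, because the deposited values are not counts.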
